A study of Mus musculus with 8 samples.

Results

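The genes described here were the heat shock proteins and the DNAJ cochaperones measured in mouse hind limb muscle. They were taken by name: every probe set whose symbol starts with Hsp (except Hspg2, a matrix protein) or Dnaj, together with Hsf1, Hsf2, Bag3, Cryab and Unc45b. The rule gave 77 probe sets of 21212, each standing for 1 gene. By name and known family they fell into 3 HSP90 genes, 12 genes of the HSP70 and HSP110 family, 7 small heat shock proteins, 4 mitochondrial genes, 4 DNAJA, 13 DNAJB and 27 DNAJC genes, and 7 regulators and other genes. Hspa1b and Hspb1 are not analysed here.

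The muscle was gastrocnemius with plantaris from female wild type C57BL/6J mice bought at 7 weeks of age and kept in single cages. The hind limbs of one group were lifted off the cage floor for 5 days, which unloads the leg muscles and makes them waste, and the other group stayed in weight bearing. Mice were assigned at random, and each group had 4 independent RNA samples, each on an array of its own (Affymetrix Mouse Gene 1.0 ST). Values are log2 expression levels as deposited, so that a difference of 1 is a 2-fold change. All changes are given as unloaded relative to weight bearing. A gene was called where limma gave an adjusted p under 0.05 (Benjamini-Hochberg over all probe sets, 4 arrays per group).

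Chaperones keep proteins folded. HSP70 binds short exposed stretches of a client protein in an ATP-driven cycle. DNAJ proteins, also called HSP40, bring clients to HSP70 and start its ATP hydrolysis, and nucleotide exchange factors such as the HSP110 proteins and BAG proteins release the client again. HSP90 then matures a narrower set of clients, among them kinases and steroid receptors, while small heat shock proteins hold unfolded proteins without ATP. In muscle, several of these proteins sit on the Z-disc and on the myosin folding pathway. The transcription factor HSF1 drives many of the same genes upon heat or other protein damage.

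The 8 arrays had medians between 6.28 and 6.33, and correlated with r from 0.996 to 0.997 within a group and from 0.992 to 0.994 between groups (over probe sets, which are not independent). One weight bearing array, replicate 2, stood apart in its neutrophil markers, whose log2 summed level was 8.97 there and between 7.42 and 7.50 in the other weight bearing arrays. Of 8 muscle fiber markers, which include Acta1 and Ckm beside genes of fast fibers, 2 (Acta1 and Mylpf) were lower and the rest did not pass the test, with log2 summed levels from 15.76 to 15.81 in unloaded and from 15.84 to 15.89 in weight bearing arrays. Lower calls were made for 4 of 8 slow fiber markers, 7 of 9 macrophage markers, 5 of 8 fibroblast markers and 2 of 8 endothelial markers. Over all probe sets 11.0% were called lower. In tissue, fewer cells of a type and less RNA per cell cannot be told apart. The part of these marker shifts in the results that follow was not tested.

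Of the 77 chaperone genes, 24 were lower in unloaded muscle (31.2%, where 11.0% of all probe sets were lower) and 7 were higher (9.09%, where 12.8% of all probe sets were higher). The other 46 did not pass the test. The unloaded and weight bearing arrays did not overlap for 38 of the 77 genes (49.4%, against 27.5% of all probe sets), with the unloaded arrays below in 26 and above in 12. The median change was -0.064 over the 77 genes and 0.045 over all probe sets. The genes that are not DNAJ genes, among them the 7 regulators and other genes, differed in their counts from the DNAJ genes. Among the 33 genes that are not DNAJ genes 15 were lower and 2 higher, with a median change of -0.158, whereas among the 44 DNAJ genes 9 were lower and 5 higher, with a median of 0.009.

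**Figure D1:**
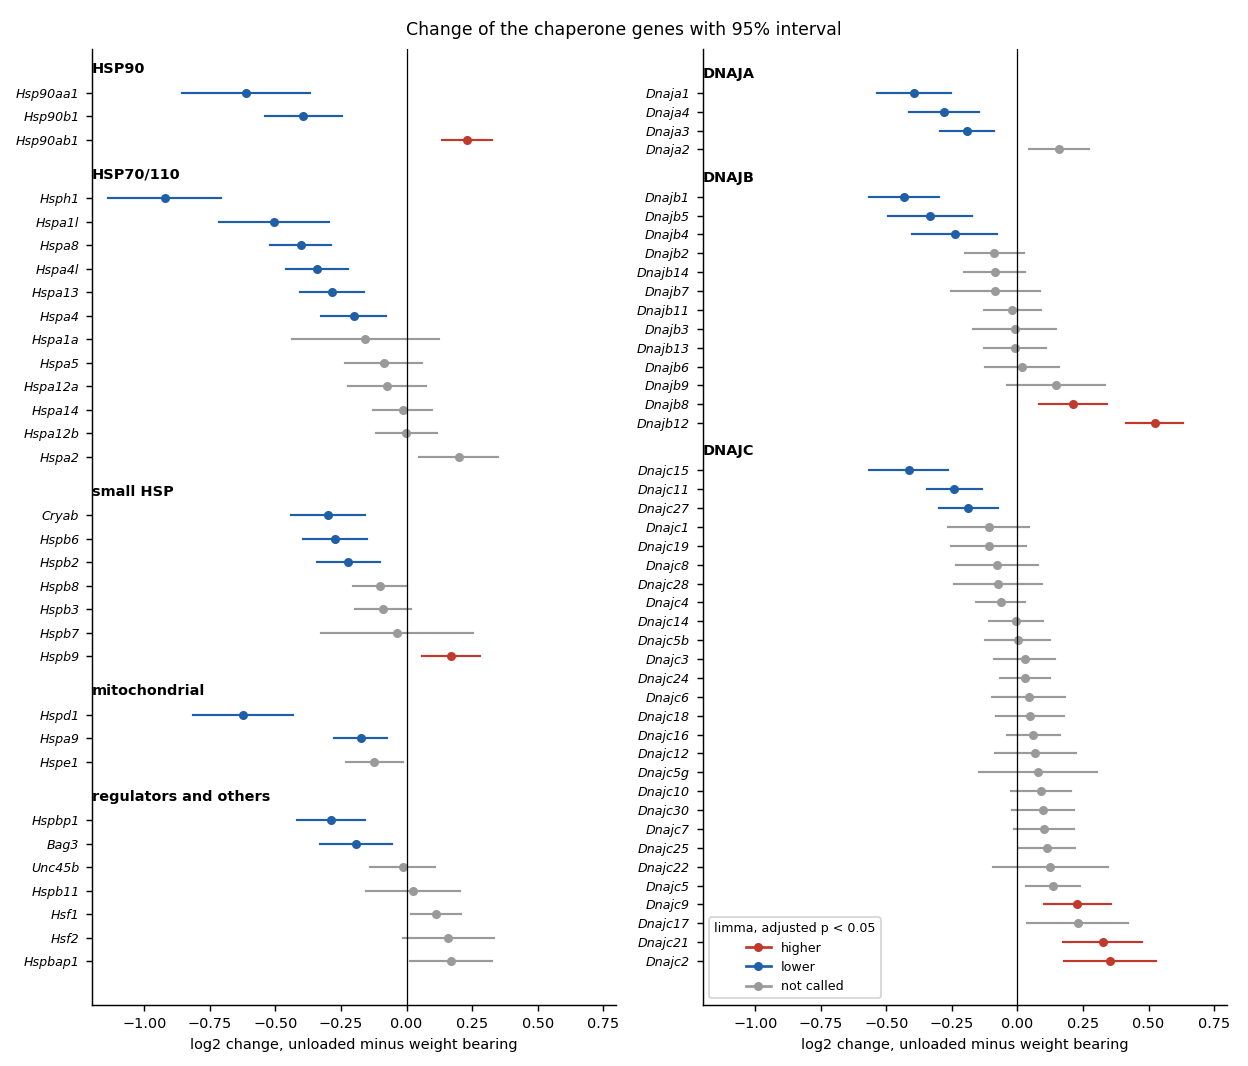
Change of 76 of the 77 genes on the log2 scale, unloaded minus weight bearing, with its 95% interval from limma (n = 4 arrays per group), grouped by family. Blue genes were called lower, red genes higher and gray genes were not called. The largest fall was that of Hsph1 (-0.92) and the largest rise that of Dnajb12 (0.52).

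**Figure D2:**
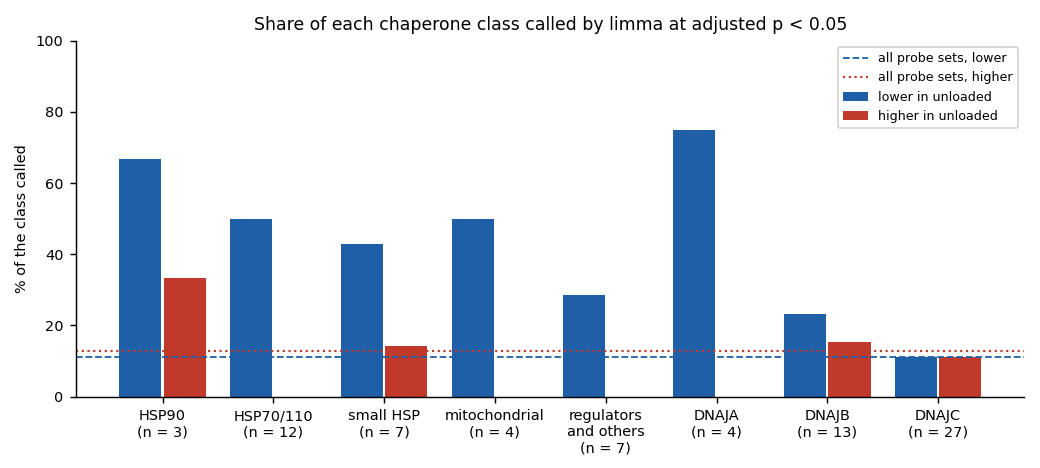
Share of each family called lower (blue) or higher (red) in unloaded muscle, in % of the genes in the family, with dashed and dotted lines at the shares over all probe sets (11.0% and 12.8%). DNAJC, the family with the most genes, had 11.1% lower and 11.1% higher.

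Most of the heat-inducible genes were lower. A list of 14 genes known to be driven by HSF1, of which 12 were measured, was made from textbook knowledge. It was chosen with earlier results of these data known. The list holds Hspa8 and Hsp90ab1, described below as constitutive, and does not hold every heat-inducible gene (Dnaja4 is left out). Its counts are thus a description only. Of these 12, 9 were lower in unloaded muscle (75.0%, against 11.0% of all probe sets). Hsp90ab1 was the 1 that was higher (8.33%, against 12.8%), and 2 did not pass the test (Hspa1a and Hspe1). Their median change was -0.368, and the unloaded and weight bearing arrays did not overlap for 11 of them (91.7%, against 27.5% of all probe sets). Averaged over the 12 genes, the difference from the weight bearing mean was -0.30, -0.38, -0.41 and -0.33 in unloaded replicates 1 to 4, and -0.02, 0.07, 0.04 and -0.09 in weight bearing replicates 1 to 4. All 4 unloaded arrays thus lay below every weight bearing array.

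**Figure D3:**
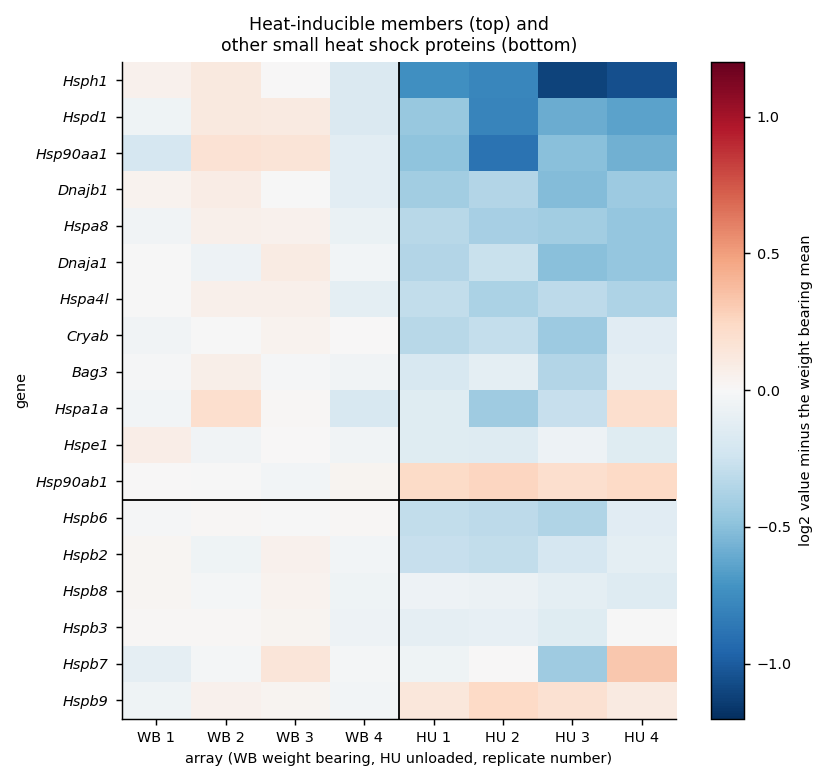
Log2 value minus the weight bearing mean of the same gene, on each array (columns, WB weight bearing and HU unloaded, with the replicate number), for the 12 heat-inducible genes (top) and the other 6 small heat shock proteins (bottom). Blue is below and red above the weight bearing mean. Hsph1, Hspd1 and Hsp90aa1 were lower on every unloaded array, Hsp90ab1 was higher on every one, and Hspa1a and Hspb7 scattered.

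Heat shock factors bind inverted repeats of the bases GAA. Promoter windows from 250 bases before to 50 bases after the start of transcription were read from RefSeq (GRCm38.p6) for 60 of the 77 genes, and searched for a pair of such repeats, GAANNTTC or TTCNNGAA (each reads the same on both strands). A pair stood in the window of 15 of the 60 genes (25%) and of 4587 of 27025 genes with a window (17.0%). It was found in 8 of 17 genes that were lower (47.1%), in 7 of 38 that were not called (18.4%) and in 0 of 5 that were higher. A row of 3 repeats, GAANNTTCNNGAA or TTCNNGAANNTTC, was searched for after these counts had been seen, and overlaps the pairs. It stood in 4 of the 60 genes (6.67%), namely in Hspd1, Hspe1, Hsph1 and Dnajb6, and in 179 of all genes (0.662%). The repeats of Hspd1 and of Hspe1 are the same bases on opposite strands, and both genes enter the counts of pairs and of rows. The motif is short, and a match describes only the letters. Among the genes not searched were Hsp90aa1, Hsp90ab1, Hspa8, Hspa9, Hspa13, Cryab, Hspb2, Hsf1, Dnajc2, Dnajc5, Dnajc5b, Dnajc11, Dnajc12, Dnajc18, Dnajc22 and Dnajc30.

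The stretches that hold the repeats are shown 5′ to 3′ on the strand of the gene. They are from 5 genes of the HSP70 cycle and the small heat shock proteins, the pair Hspd1 and Hspe1, and Dnajb6. Of these, Hspe1, Hspa1a and Dnajb6 did not pass the test. Other genes with a pair, such as Dnajb4 and Dnajc27, both called lower, are not printed. Capitals mark the repeats. The Hspe1 stretch lies at chr1:55088037-55088098 on the plus strand, and the same bases on the minus strand belong to the promoter of Hspd1, since the genes run away from each other. Hsph1 (chr5:149636340-149636391, minus strand) has 1 pair before its start, and its row of 3 repeats lies after the start and is not printed. The others are Dnaja1 (chr4:40722322-40722373, plus strand), Dnaja4 (chr9:54699447-54699536, plus strand), Hspb6 (chr7:30553159-30553210, plus strand), Hspa1a (chr17:34972231-34972282, minus strand) and Dnajb6 (chr5:29735830-29735886, plus strand).
Hspe1: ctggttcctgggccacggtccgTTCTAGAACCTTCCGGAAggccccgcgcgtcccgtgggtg
Hsph1: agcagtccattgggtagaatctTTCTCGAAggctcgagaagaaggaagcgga
Dnaja1: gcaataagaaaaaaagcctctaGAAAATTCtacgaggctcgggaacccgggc
Dnaja4: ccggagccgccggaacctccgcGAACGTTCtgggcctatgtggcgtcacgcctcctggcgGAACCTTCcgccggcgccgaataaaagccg
Hspb6: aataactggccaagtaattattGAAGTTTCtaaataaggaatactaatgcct
Hspa1a: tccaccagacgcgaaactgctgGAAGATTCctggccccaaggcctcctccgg
Dnajb6: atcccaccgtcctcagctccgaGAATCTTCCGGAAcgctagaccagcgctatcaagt

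In the HSP70 and HSP110 family 6 of 12 genes were lower, the other 6 did not pass the test, and the median change was -0.18. Hsph1, an HSP110 protein that acts as nucleotide exchange factor of HSP70, changed most of all 77 genes. Its log2 values were 7.99, 7.94, 7.61 and 7.67 in unloaded replicates 1 to 4 and 8.78, 8.85, 8.74 and 8.55 in weight bearing replicates 1 to 4, the order kept for every gene that follows. The highest unloaded array lay well below the lowest weight bearing array. Hsph1 fell by 0.92 (95% interval -1.14 to -0.71, 1.90-fold, limma adjusted p = 0.000161). Hspa4l, a second HSP110 protein, read 6.14, 6.06, 6.13 and 6.07 in unloaded and 6.44, 6.51, 6.50 and 6.32 in weight bearing arrays, with no overlap, a fall of 0.34 (1.27-fold, limma adjusted p = 0.00164). Hspa4, the third, fell by 0.20 (1.15-fold, limma adjusted p = 0.0257), and lost its call when unloaded replicate 2 (0.0659), unloaded replicate 4 (0.069) or weight bearing replicate 3 (0.0632) was left out. These 3 genes were thus called lower, Hspa4 less firmly than the others. Hyou1, the relative in the endoplasmic reticulum, is outside the naming rule and was not called (-0.01, limma adjusted p = 0.942).

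Hspa8 encodes HSC70, the constitutive HSP70 of the cytosol, which also uncoats vesicles and serves chaperone-mediated autophagy. Its values were 11.92, 11.85, 11.83 and 11.79 in unloaded and 12.21, 12.32, 12.31 and 12.18 in weight bearing arrays. The arrays of a group lay within 0.14 of each other, and Hspa8 fell by 0.40 (95% interval -0.52 to -0.29, 1.32-fold, limma adjusted p = 0.000551). Hspa13, an HSP70-like ATPase of microsomes, read 7.32, 7.14, 7.17 and 7.31 against 7.55, 7.51, 7.49 and 7.53, again without overlap, and fell by 0.28 (1.22-fold, limma adjusted p = 0.00462).

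The heat-inducible HSP70 itself was not called. Hspa1a read 7.33, 7.05, 7.20 and 7.68 in unloaded and 7.44, 7.68, 7.49 and 7.29 in weight bearing arrays. The groups overlapped almost fully, with unloaded replicate 4 as high as the highest weight bearing array, and the change was -0.16 (95% interval -0.44 to 0.12, limma adjusted p = 0.382). Its neighbor on chromosome 17, Hspa1l, best known from testis, read 8.62, 8.43, 8.22 and 8.56 against 8.92, 9.05, 9.09 and 8.80 and fell by 0.51 (1.42-fold, limma adjusted p = 0.00418). These genes and Hspa1b are near-identical over long stretches, so that signal may be shared between their probe sets, and both results are uncertain in that respect.

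Hspa5, or BiP, the HSP70 of the endoplasmic reticulum, read 10.35, 10.27, 10.42 and 10.36 in unloaded and 10.47, 10.46, 10.56 and 10.26 in weight bearing arrays. The groups overlapped through weight bearing replicate 4, and the change was -0.09 (limma adjusted p = 0.358). Hspa2, known from germ cells, was the single gene of the family with a positive change (0.20, limma adjusted p = 0.0565, unadjusted p = 0.0142). It passed the test when weight bearing replicate 4 was left out (0.0194). The remaining genes, Hspa12a, Hspa12b and Hspa14, had changes from -0.08 to 0.00.

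The HSP90 genes moved in opposite directions. Hsp90aa1, the stress-inducible cytosolic form, read 7.36, 6.96, 7.33 and 7.26 in unloaded and 7.64, 8.01, 7.99 and 7.71 in weight bearing arrays. Hsp90ab1, the constitutive cytosolic form, read 11.98, 12.00, 11.95 and 11.99 in unloaded and 11.76, 11.74, 11.72 and 11.78 in weight bearing arrays. Neither gene's groups overlapped, Hsp90aa1 being low and Hsp90ab1 high in all 4 unloaded arrays. Hsp90aa1 fell by 0.61 (95% interval -0.86 to -0.37, 1.53-fold, limma adjusted p = 0.00333) and Hsp90ab1 rose by 0.23 (95% interval 0.14 to 0.33, 1.17-fold, limma adjusted p = 0.00382). The difference between the changes was 0.84, a pair chosen after its values had been seen and given without a test. The spread of Hsp90ab1 was small, with an SD of 0.02 and 0.03.

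Hsp90b1 encodes GRP94, the HSP90 of the endoplasmic reticulum, which folds integrins and Toll-like receptors. It read 9.54, 9.47, 9.56 and 9.51 in unloaded and 9.93, 10.06, 9.94 and 9.74 in weight bearing arrays. The groups did not overlap, the weight bearing arrays spread more, and the fall was 1.31-fold (log2 change -0.39, limma adjusted p = 0.0023). By the methods' t-test, run here with a variance for each group, it narrowly missed the threshold (adjusted p = 0.052). The methods do not state how variances were treated, so the calls of the study itself may differ.

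**Figure D4:**
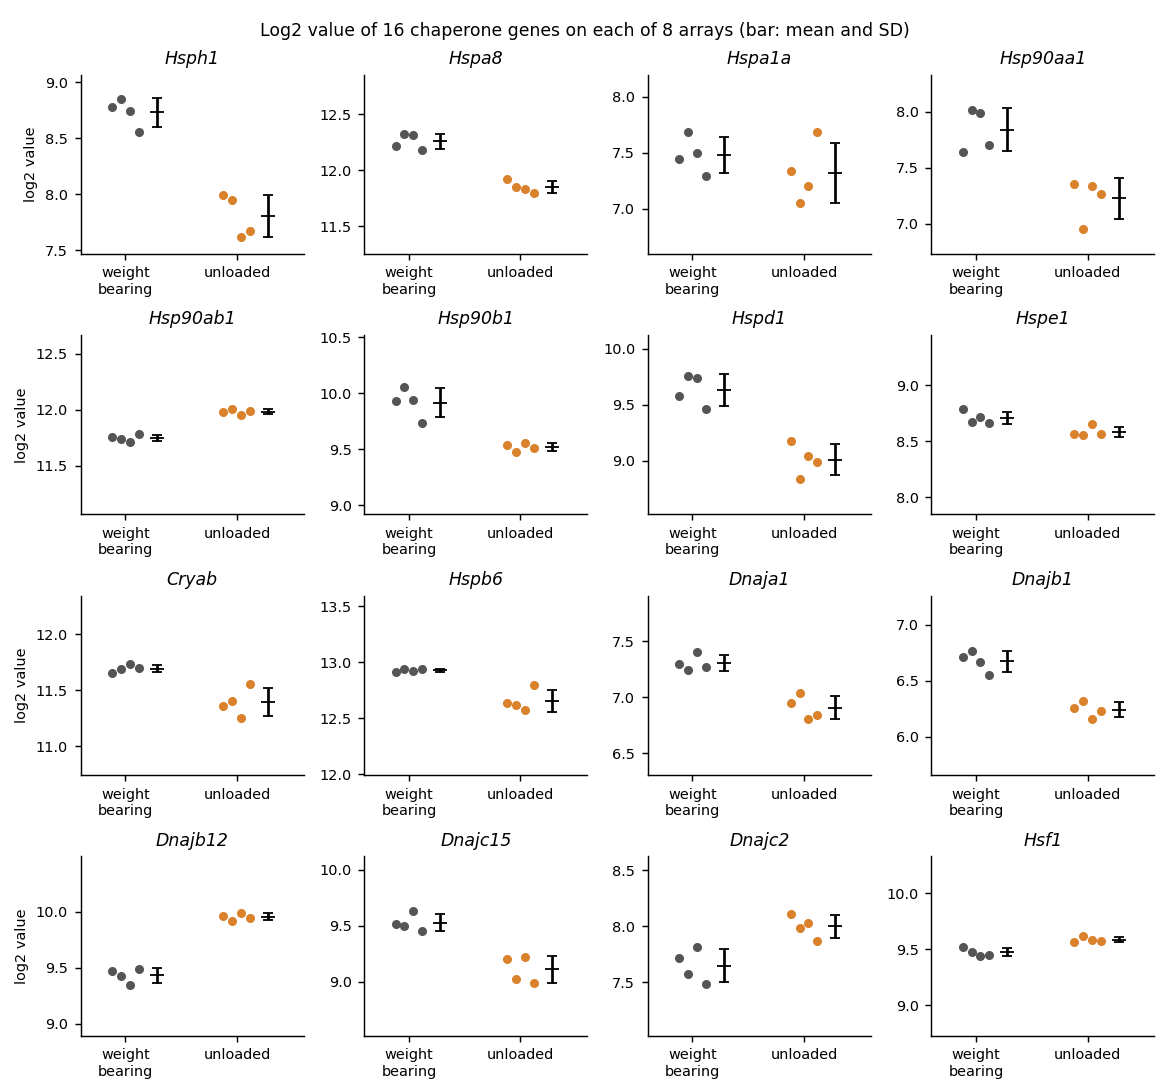
Log2 values of 16 chaperone genes on each of the 8 arrays (points, replicates 1 to 4 from left to right within a group), with the mean and SD of each group (bars, n = 4). Every panel spans the same range of log2 units, so that distances can be compared between panels, while the panels start at different levels. Dnajb12 and Hsp90ab1 rose on all unloaded arrays, and the groups overlap for Hspa1a.

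Among the mitochondrial chaperones 2 of 4 genes were lower and the other 2 did not pass. HSP60 (Hspd1) forms the folding chamber of the mitochondrial matrix and HSP10 (Hspe1) its lid. Hspd1 read 9.17, 8.83, 9.04 and 8.99 in unloaded and 9.58, 9.75, 9.74 and 9.46 in weight bearing arrays. Its groups were far apart, and it fell by 0.62 (95% interval -0.81 to -0.43, 1.54-fold, limma adjusted p = 0.000762). Hspe1 read 8.57, 8.56, 8.65 and 8.57 against 8.79, 8.67, 8.71 and 8.67. Its groups did not overlap either, but they nearly touched, and the change of -0.12 did not pass the test (95% interval -0.23 to -0.02, limma adjusted p = 0.0917). Hspe1 was called at 0.0453 when the dimmest 50% of probe sets were left out. The genes are neighbors on chromosome 1 and share the promoter stretch printed above. Within each array the value of Hspd1 minus that of Hspe1 was 0.42 ± 0.14 in unloaded and 0.92 ± 0.15 in weight bearing muscle (mean ± SD, n = 4 arrays), so the genes changed unequally, by 0.50. The pair was chosen after its values had been seen, and no test is given.

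Hspa9, or mortalin, is the HSP70 of the matrix and part of the protein import motor. It read 10.99, 10.94, 11.01 and 10.95 in unloaded and 11.14, 11.12, 11.21 and 11.11 in weight bearing arrays, without overlap. It fell by 0.17 (1.13-fold, limma adjusted p = 0.0204), and missed the threshold without unloaded replicate 2 (0.0554), unloaded replicate 4 (0.0527) or weight bearing replicate 3 (0.0501).

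With the mitochondrial DNAJ proteins added, 5 of 10 mitochondrial genes were lower and the other 5 did not pass (median change -0.149). Those lower were Hspd1, Hspa9, Dnaja3, Dnajc11 and Dnajc15. Of 8 partner genes of these chaperones none passed the test by limma, in either direction. Over all probe sets 11.0% were lower and 12.8% higher, so 0 of 8 is not far from the common rate. An unadjusted p under 0.05 was found for 1 of the 8. That gene was the protease subunit Clpp (0.15, limma adjusted p = 0.0718). Grpel1, the exchange factor that works with mortalin, changed by 0.07 (limma adjusted p = 0.300) and Trap1, the mitochondrial HSP90, by 0.02 (limma adjusted p = 0.758).

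The endoplasmic reticulum genes were mixed. Of 8 such genes 2 were lower, Hsp90b1 and Hspa13, and the other 6 did not pass (median change -0.054). The list leaves out the membrane proteins Dnajb12, which rose by 0.52 (limma adjusted p = 7.78e-05), and Dnajb14, which did not pass. Hspa5 and its DNAJ partners Dnajb9, Dnajb11, Dnajc1, Dnajc3 and Dnajc10 had changes from -0.11 to 0.15. Dnajb9 passed the test when weight bearing replicate 3 was left out (0.0284). The fibroblast markers, many of them secreted proteins, had log2 summed levels from 13.24 to 13.30 in unloaded and from 13.71 to 13.88 in weight bearing arrays, and the macrophage markers from 10.80 to 11.15 and from 11.23 to 11.49. Their part in the fall of Hsp90b1 and Hspa13 was not tested.

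Small heat shock proteins of striated muscle were lower or did not pass the test, and a single one, known from testis, was higher. Cryab, the small heat shock protein that protects desmin and titin at the Z-disc, read 11.36, 11.40, 11.25 and 11.55 in unloaded and 11.65, 11.69, 11.73 and 11.70 in weight bearing arrays. Its neighbor on chromosome 9, Hspb2, read 9.19, 9.17, 9.27 and 9.35 against 9.49, 9.42, 9.52 and 9.44. Hspb6, or HSP20, read 12.64, 12.62, 12.57 and 12.80 against 12.92, 12.94, 12.92 and 12.94. For all these genes the unloaded arrays lay below every weight bearing array, with unloaded replicate 4 the highest of its group, and the weight bearing arrays of Hspb6 were nearly equal. Cryab fell by 0.30 (95% interval -0.44 to -0.16, 1.23-fold, limma adjusted p = 0.00785), Hspb6 by 0.27 (1.21-fold, limma adjusted p = 0.00609) and Hspb2 by 0.22 (1.17-fold, limma adjusted p = 0.0145). The methods' t-test called neither Cryab (adjusted p = 0.0756) nor Hspb6 (0.0648).

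Hspb8, which works with Bag3 in the removal of damaged filamin, had unloaded values from 10.65 to 10.75 and weight bearing values from 10.76 to 10.85. These ranges did not overlap, but the change of -0.10 did not pass (limma adjusted p = 0.134). Hspb3 changed by -0.09 (limma adjusted p = 0.205). Hspb7, a filamin-binding protein of heart and muscle, read 10.63, 10.68, 10.25 and 11.00 in unloaded and 10.58, 10.66, 10.83 and 10.66 in weight bearing arrays. Unloaded replicates 3 and 4 were the lowest and the highest of all, the SD was 0.31 in unloaded and 0.11 in weight bearing muscle, and the change was -0.04 (95% interval -0.33 to 0.25, limma adjusted p = 0.855).

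Unloaded replicate 4 was the highest unloaded array for 5 of the 7 small heat shock proteins. The log2 summed level of all 7 was 13.71, 13.71, 13.61 and 13.87 in unloaded and 13.93, 13.95, 13.98 and 13.94 in weight bearing arrays. Markers of slow fibers had log2 summed levels of 13.06, 13.11, 13.34 and 13.52 in unloaded and 13.67, 13.66, 13.58 and 13.66 in weight bearing arrays. Unloaded replicate 4 was the highest unloaded array in both sums, whereas unloaded replicate 3 was the lowest for the small heat shock proteins and the next highest for the slow fiber markers. Of the 8 slow fiber markers 4 were lower and the others did not pass (median change -0.336), with Myl2 falling by 1.02, Myl3 by 0.94 and Tnni1 by 0.66. The part of slow fiber content in the fall of the small heat shock proteins was not tested.

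Hspb9, a small heat shock protein known from testis, read 6.00, 6.11, 6.06 and 5.98 in unloaded and 5.82, 5.92, 5.90 and 5.84 in weight bearing arrays. The groups were separate by a narrow margin, and Hspb9 rose by 0.17 (1.12-fold, limma adjusted p = 0.0339). The call was lost after quantile normalization (0.0621) and when unloaded replicate 2 (0.0902), unloaded replicate 3 (0.0779), weight bearing replicate 1 (0.0885) or weight bearing replicate 4 (0.0743) was left out. Of 7 testis germ cell markers, which muscle should lack, 1 (Prm1) was called higher and their median change was 0.176, with log2 summed levels from 7.61 to 7.68 in unloaded and from 7.47 to 7.53 in weight bearing arrays. The change of Hspb9 lay within the range of these markers (-0.03 to 0.24). Whether its rise shares a source with their shift was not tested.

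DNAJA proteins are the cytosolic and mitochondrial HSP40s closest to the bacterial form. Of the 4 genes 3 were lower (75.0%, against 11.0% of all probe sets). Dnaja1 read 6.95, 7.04, 6.80 and 6.84 in unloaded and 7.30, 7.24, 7.41 and 7.27 in weight bearing arrays. Its groups did not overlap, and it fell by 0.39 (95% interval -0.54 to -0.25, 1.31-fold, limma adjusted p = 0.00184). Dnaja4, a heat-inducible relative, read 8.81, 8.68, 8.56 and 8.76 against 8.92, 9.03, 8.98 and 9.002, also without overlap. It fell by 0.28 (1.21-fold, limma adjusted p = 0.00863), although the methods' t-test did not call it (adjusted p = 0.0575). Dnaja3, the mitochondrial form Tid1, read 9.34, 9.23, 9.30 and 9.23 against 9.48, 9.44, 9.50 and 9.44. All its unloaded arrays were lower, and the fall was 0.19 (1.14-fold, limma adjusted p = 0.0151).

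Dnaja2 was on the other side. It read 10.66, 10.60, 10.67 and 10.55 in unloaded and 10.45, 10.38, 10.51 and 10.50 in weight bearing arrays, so that all unloaded arrays were above. The change of 0.16 (95% interval 0.04 to 0.27) missed the threshold by limma (adjusted p = 0.0504) and passed it after quantile normalization (0.0311), with array weights (0.0485), with an intensity trend (0.0194), without the dimmest 25% (0.0361) or 50% (0.023) of probe sets and without unloaded replicate 4 (0.0496).

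Of the 13 DNAJB genes 3 were lower and 2 higher (23.1% and 15.4%, against 11.0% and 12.8% of all probe sets), with a median change of -0.021. Dnajb1, the main heat-inducible partner of HSP70, read 6.26, 6.32, 6.16 and 6.23 in unloaded and 6.71, 6.76, 6.67 and 6.55 in weight bearing arrays. Dnajb12, a protein of the endoplasmic reticulum membrane that takes part in the degradation of membrane proteins, read 9.97, 9.92, 9.99 and 9.94 in unloaded and 9.47, 9.43, 9.34 and 9.49 in weight bearing arrays. Both genes had separate groups, and Dnajb1 was low and Dnajb12 high in every unloaded array. Dnajb1 fell by 0.43 (95% interval -0.56 to -0.30, 1.35-fold, limma adjusted p = 0.000757). Dnajb12 rose by 0.52 (95% interval 0.42 to 0.63, 1.44-fold, limma adjusted p = 7.78e-05), the largest rise among the 77 genes. Dnajb14, its closest relative in the same membrane, changed by -0.09 (limma adjusted p = 0.252).

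Dnajb5, a cytosolic relative of Dnajb1, read 10.17, 10.11, 10.25 and 10.10 against 10.49, 10.63, 10.55 and 10.29. The groups did not overlap, weight bearing replicate 4 being the nearest to the unloaded arrays, and the fall was 0.33 (1.26-fold, limma adjusted p = 0.00864), which the methods' t-test did not call (adjusted p = 0.0669). Dnajb4 read 10.04, 9.86, 9.75 and 9.89 against 10.20, 10.22, 10.09 and 10.0002. Its groups overlapped, through unloaded replicate 1 and weight bearing replicate 4, and its fall of 0.24 (1.18-fold, limma adjusted p = 0.0369) was lost in 6 of the 8 fits that left out 1 array and by the methods' t-test (0.0997). Without unloaded replicates 2, 3 and 4 in turn its adjusted p was 0.0842, 0.0955 and 0.073, and without weight bearing replicates 1, 2 and 3 in turn it was 0.0906, 0.0922 and 0.057.

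Dnajb8, known from testis, read 5.92, 6.01, 6.13 and 6.13 in unloaded and 5.84, 5.80, 5.80 and 5.89 in weight bearing arrays. The lowest unloaded array was just above the weight bearing arrays, and the rise of 0.21 (1.16-fold, limma adjusted p = 0.0247) was close to the median change of the testis markers. A common source of these changes was not tested. The call was lost without unloaded replicates 3 (0.0673) and 4 (0.0681) and without weight bearing replicates 1 (0.053), 2 (0.0591) and 3 (0.0569), and by the methods' t-test (0.0843). Dnajb6, which protects the Z-disc and is mutated in a limb girdle muscular dystrophy, changed by 0.02 (95% interval -0.12 to 0.16, limma adjusted p = 0.869). The other DNAJB genes, Dnajb2, Dnajb3, Dnajb7, Dnajb9, Dnajb11 and Dnajb13, had changes from -0.09 to 0.15 and did not pass.

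The DNAJC genes, which share little besides the J domain, were called at the rate of all probe sets. Of 27 genes 3 were lower and 3 higher (11.1% each), with a median change of 0.047. The lower ones included both mitochondrial membrane proteins with clear changes. Dnajc15, a protein of the inner membrane that restrains the respiratory chain, read 9.20, 9.03, 9.22 and 8.99 in unloaded and 9.51, 9.50, 9.63 and 9.45 in weight bearing arrays. Dnajc11, found with the complex that shapes the cristae, read 7.75, 7.80, 7.83 and 7.85 against 8.08, 7.98, 8.07 and 8.08. Neither gene's groups overlapped. Dnajc15 fell by 0.42 (95% interval -0.56 to -0.27, 1.33-fold, limma adjusted p = 0.00198) and Dnajc11 by 0.24 (1.18-fold, limma adjusted p = 0.00515). Dnajc27, a small GTPase with a J domain, fell by 0.19 (1.14-fold, limma adjusted p = 0.0242). It lost its call without unloaded replicates 2 (0.0528) and 3 (0.0657) and without weight bearing replicates 1 (0.0566), 2 (0.0596) and 3 (0.0576).

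The 3 DNAJC genes that rose (11.1%, against 12.8% of all probe sets) were Dnajc2, Dnajc21 and Dnajc9. Dnajc2 encodes the ribosome-bound partner of HSP70 that meets new polypeptides, and read 8.11, 7.99, 8.03 and 7.87 in unloaded and 7.72, 7.57, 7.81 and 7.49 in weight bearing arrays. Dnajc21, which serves the maturation of the large ribosomal subunit, read 9.45, 9.27, 9.41 and 9.29 against 9.14, 8.90, 9.10 and 8.99. Dnajc9, a histone chaperone, read 7.46, 7.40, 7.40 and 7.41 against 7.15, 7.06, 7.31 and 7.23. In each case the unloaded arrays were above every weight bearing array, by a small margin for Dnajc2. The rises were 0.35 for Dnajc2 (1.28-fold, limma adjusted p = 0.0102), 0.32 for Dnajc21 (1.25-fold, limma adjusted p = 0.00702) and 0.23 for Dnajc9 (1.17-fold, limma adjusted p = 0.0173). The methods' t-test did not call Dnajc2 (adjusted p = 0.061) or Dnajc9 (0.0855).

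Dnajc5, the cysteine string protein of secretory vesicles, read 9.37, 9.36, 9.32 and 9.26 in unloaded and 9.23, 9.15, 9.18 and 9.20 in weight bearing arrays. Its groups were separate, and its change of 0.14 was not called by limma (adjusted p = 0.0573) and was called by the methods' t-test (0.043). Dnajc17, linked to splicing, changed by 0.23 (limma adjusted p = 0.082), with an SD of 0.20 among weight bearing arrays, and passed without weight bearing replicate 4 (0.0163). The other 19 DNAJC genes, Dnajc1, Dnajc3, Dnajc4, Dnajc5b, Dnajc5g, Dnajc6, Dnajc7, Dnajc8, Dnajc10, Dnajc12, Dnajc14, Dnajc16, Dnajc18, Dnajc19, Dnajc22, Dnajc24, Dnajc25, Dnajc28 and Dnajc30, had changes from -0.11 to 0.13 and did not pass. They included Dnajc19 of the mitochondrial import motor (-0.11, limma adjusted p = 0.238) and Dnajc3, the kinase inhibitor of the endoplasmic reticulum (0.03, limma adjusted p = 0.725). For Dnajc4 the methods' t-test made a call (0.0378), and its change of -0.06 was among the smallest of any gene whose groups did not overlap.

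The heat shock factors did not fall with the heat-inducible genes. Hsf1, the main activator of these genes, read 9.57, 9.62, 9.59 and 9.57 in unloaded and 9.52, 9.48, 9.44 and 9.45 in weight bearing arrays. Every unloaded array was above the weight bearing arrays, and the change of 0.11 (95% interval 0.02 to 0.21) missed the threshold by limma (adjusted p = 0.0863) and passed by the methods' t-test (0.0332). Hsf2, a related factor, read 8.61, 8.42, 8.25 and 8.35 against 8.25, 8.33, 8.28 and 8.14, with overlap and a change of 0.16 (limma adjusted p = 0.165). Of the other factors, Hsf4 rose by 0.35 (1.27-fold, limma adjusted p = 0.0026), while Hsf5 (0.14, adjusted p = 0.216) and the HSF1-binding protein Hsbp1 (0.03, adjusted p = 0.671) did not pass. Arrays measure the RNA of these factors and not their activity.

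Bag3, the cochaperone that links HSP70 and small heat shock proteins to selective autophagy, read 9.93, 9.9997, 9.76 and 10.004 in unloaded and 10.10, 10.18, 10.10 and 10.07 in weight bearing arrays. The unloaded arrays were all below, with replicate 3 the lowest. Its fall of 0.19 (1.14-fold) was at the edge of the threshold (limma adjusted p = 0.0477) and was lost in all 8 fits without 1 array, with adjusted p from 0.0505 to 0.114, and in 16 of 19 alternatives in all. Hspbp1, an exchange factor of cytosolic HSP70, read 7.77, 7.62, 7.66 and 7.84 against 8.02, 7.95, 8.06 and 8.00. Its groups were apart, and it fell by 0.29 (1.22-fold, limma adjusted p = 0.00643).

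Unc45b, the chaperone that folds muscle myosin together with HSP90, read 9.89, 9.96, 9.97 and 9.93 in unloaded and 9.97, 9.91, 9.85 and 10.07 in weight bearing arrays. The unloaded values fell inside the weight bearing range, and the change was -0.02 (95% interval -0.14 to 0.11, limma adjusted p = 0.858). Hspb11, a protein of ciliary transport in spite of its name, and Hspbap1, a protein that binds HSPB1, did not pass (0.02 and 0.17, limma adjusted p = 0.843 and 0.109). Hspbap1 passed without weight bearing replicate 4 (0.0428). Of 6 partners of the sarcomere chaperones, Smyd1, a methyltransferase that acts with Unc45b on myosin, fell by 0.41 (1.32-fold, limma adjusted p = 0.000236). Flnc, the filamin handled by Bag3, fell by 0.30 (limma adjusted p = 0.0353), and Des, the desmin that Cryab protects, rose by 0.24 (limma adjusted p = 0.00319). The other 3, Synpo2, Stub1 and Unc45a, did not pass.

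The cochaperones of HSP90 were the pathway genes with the largest changes. Of 20 listed, 9 were lower and 3 higher (45.0% and 15.0%, against 11.0% and 12.8% of all probe sets), with a median of -0.098. Ppid, or cyclophilin 40, fell by 0.77 (1.70-fold, limma adjusted p = 6.8e-05), Chordc1, which binds HSP90 and HSP70, by 0.62 (1.54-fold, limma adjusted p = 0.00393) and Ahsa2, an activator of the HSP90 ATPase, by 0.46 (1.38-fold, limma adjusted p = 0.00101). Fkbp5, an immunophilin of the glucocorticoid receptor complex, went the other way, with a level of 8.97 ± 0.10 in unloaded and 7.75 ± 0.50 in weight bearing muscle (mean ± SD, n = 4) and a rise of 1.22 (limma adjusted p = 0.0021). Its relative Fkbp4 fell by 0.29 (1.23-fold, limma adjusted p = 0.00117). Stip1, the adaptor that hands clients from HSP70 to HSP90, fell by 0.41 (limma adjusted p = 0.00235). Besides Fkbp5, the genes called higher were Sgta, which rose by 0.35 (1.28-fold, limma adjusted p = 0.000982), and Sugt1, which rose by 0.24 (limma adjusted p = 0.0236).

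Among 11 nucleotide exchange factors and other regulators of HSP70, Bag2 fell by 0.46 (1.38-fold, limma adjusted p = 0.000873) and St13, the HSP70-interacting protein Hip, by 0.31 (1.24-fold, limma adjusted p = 0.00133). Bag6, which guides tail-anchored and misfolded membrane proteins, rose by 0.33 (1.25-fold, limma adjusted p = 0.00228). The other 8 did not pass, so that 18.2% were lower and 9.09% higher, against 11.0% and 12.8% of all probe sets. In the TRiC chaperonin and its partner prefoldin, which fold actin and tubulin, 4 of 14 subunits were lower and 2 higher. These are 28.6% and 14.3%, against 11.0% and 12.8% of all probe sets. Vbp1 fell by 0.27, Cct3 and Cct8 by 0.24 and Cct5 by 0.22 (limma adjusted p from 0.00812 to 0.0244), whereas Pfdn5 rose by 0.18 and Tcp1 by 0.16 (adjusted p = 0.0203 and 0.043). The groups of Vbp1 overlapped. Subunits of 1 complex were thus called in both directions, but the share called higher was close to that of all probe sets.

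The study concerned the cofactor Bcl-3, which with p50 activates genes of the NF-kB network in unloaded muscle. Of the chaperone set, 9 members have promoters on the list of regions with more Bcl-3 binding after unloading. Of these 9, 5 were lower (55.6%, against 31.2% of the 77 genes and 11.0% of all probe sets). The other 4 did not pass (median change -0.174). Those lower were Hsph1, Dnajb5, Hspbp1, Dnajc27 and Hspa9, and those not called were Hspa2, Hspa5, Dnajc7 and Dnajc8. The list was made by the study from unloaded and weight bearing muscle, and is no independent evidence of a direction. The share lower over all its genes was not counted.

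The arrays of a group varied little in these genes. The median SD over the 77 genes was 0.073 in unloaded and 0.072 in weight bearing muscle, and over all probe sets 0.086 and 0.085. Unloaded replicate 1 was the highest unloaded array for 34 of the 77 genes and the lowest for 6, and unloaded replicate 2 was the highest for 11 and the lowest for 28. Averaged over the 77 genes the difference from the weight bearing mean was -0.04, -0.10, -0.09 and -0.08 in the unloaded and -0.00, -0.01, 0.04 and -0.02 in the weight bearing arrays. Unloaded replicate 1, the array nearest to the weight bearing arrays, was still below all of them.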

How the data were processed

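Total RNA was labeled and hybridized to 8 arrays, 4 per group. The authors applied robust multi-array analysis (RMA, named without a version in the submitters' processing notes) with a custom probe set definition, which corrects background, equalizes arrays and summarizes probes, and deposited log2 values. The sources used here name no release or build for that definition. Values were used without further scaling or filter. Symbols came from the platform annotation and, through the Entrez ID in the row name, from RefSeq. Of the 77 genes 3 were named through the ID alone. No gene had more than 1 probe set. For 1 gene, which enters the counts, values are not reported here.

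Groups came from the sample labels, which call the samples biological replicates. They were compared with limma 3.58.1 (lmFit, eBayes, two-sided) in R 4.3.3, without covariates, as the methods compare group means. A fold change is the log2 change taken back to the linear scale. Python 3.11.15, pandas 2.3.3, numpy 2.4.6 and matplotlib 3.10.9 did the rest. The fit was tested on simulated data. The number of arrays limits the precision.

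Members and gene lists were chosen with earlier results of these data known. Values on every array were given for up to 5 called genes with separate groups and the largest change in each family, the 2 with the highest mean, and Hsf1, Hsf2, Bag3, Cryab and Unc45b. Up to 4 called genes were named per pathway list. Hspa1a, Hspe1, Hspb7, Hyou1, Stip1, Fkbp4, Sgta, Sugt1, Trap1, Pfdn5 and Tcp1 were added after their values were seen. Promoter sequences were from RefSeq. What is called the methods' t-test is a version run here, with a variance for each group. The methods name a parametric t-test and do not state its variance, so the study's own calls may differ. Alternatives were the methods' t-test with Benjamini-Hochberg adjustment, the same test with pooled variance, limma with an intensity trend and robust variance or with array weights, quantile normalization, equal array medians, removal of the dimmest 25% or 50%, the replicate number as a block, an adjusted p under 0.01, a minimum change of 1.2-fold, and each array left out in turn.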

Additional observations from a re-analysis of the deposited data

Results flagged for a closer look

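In 7 of 154 groups of 4 arrays, 1 array lay far from the other 3, by the share of the group's range that its gap to the nearest array took up. Chance gives about 1 in 20 such groups. Hspe1 read 8.65 in unloaded replicate 3 and 8.56 to 8.57 in the other unloaded arrays (gap over range 0.883). Dnajc11 read 7.98 in weight bearing replicate 2 and 8.07 to 8.08 in the others (0.907), and stayed called lower when any single array was left out. Hspa14 read 7.08 in unloaded replicate 4 and 7.18 to 7.19 in the others (0.899). Dnajc5g read 4.58 in unloaded replicate 4 and 4.11 to 4.13 in the others (0.962). Dnajc12 read 7.48 in weight bearing replicate 2 and 7.68 in the others (0.985), Dnajc3 8.74 in weight bearing replicate 3 and 8.82 to 8.84 in the others (0.869), and Dnajc24 7.69 in weight bearing replicate 1 and 7.73 in the others (0.88).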

How the results depend on the processing

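Of the 24 genes called lower, 10 were called lower under all 19 alternatives, as was Hspa4l under the 18 that tested it, since it was among the dimmest 50%. When each array was left out, 19 kept their call. Of the 7 called higher, 2 were called under all alternatives and 5 when each array was left out. Of the 46 not called, 35 were called in no alternative that tested them. No change turned its sign among the called genes. The number of genes lower was 17 by the methods' t-test, 17 at an adjusted p under 0.01, 16 with a change of at least 1.2-fold, and 19 to 23 leaving out each array. The number higher was 3 at an adjusted p under 0.01, 3 with at least 1.2-fold, and 5 to 9 leaving out each array. The median change of the genes was -0.086 without the dimmest 50% of probe sets, which left 63 genes, and -0.063 to -0.036 leaving out each array, the latter without unloaded replicate 4. Over all probe sets 1393 were higher and 1374 lower by the methods' t-test, 1067 and 1311 at an adjusted p under 0.01, and 1244 higher with at least 1.2-fold. Leaving out each array gave 1802 (without unloaded replicate 3) to 2852 higher and 1833 to 2206 lower. Quantile normalization and equal array medians moved the median change of all probe sets from 0.0447 to 0.0175 and 0.0391. Same-numbered arrays had correlations of deviations of 0.024, 0.037, 0.12 and 0.095, and the unloaded array correlated best with its own number for 3 of 4 numbers. The match is a hint from the data. It was not taken as pairing, since the labels name no shared source and not every correlation was above 0.1. With the replicate block 22 genes were lower and 7 higher. Averaging several probe sets was not run, since no gene had more than 1. The cause of these differences was not tested.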
